A study of Mus musculus with 96 samples.

Results

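The genes described here act in skin shedding and were read from the epidermis of 4 mouse genotypes over the day. They are Spink5 and 9 kallikreins, Klk5, Klk6, Klk7, Klk8, Klk9, Klk10, Klk11, Klk13 and Klk14. They were chosen by name, as the kallikrein-related peptidases tied to desquamation and their inhibitor, and all 10 stood among the 22384 genes held by all 4 deposited tables. Of these, 9 had a mean of at least 1 RPKM (reads per kilobase of transcript and per 1 M reads) over all libraries and were tested with 12144 genes in all. Klk6, at a mean of 0.385 RPKM, was not tested.

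Kallikreins are secreted serine proteases that keratinocytes of the granular layer make as inactive precursors. In the stratum corneum they cut the corneodesmosomes that hold the outermost cells together, and the cells are then shed. SPINK5, whose product is called LEKTI, is a multi-domain inhibitor that holds KLK5, KLK7 and KLK14 in check, and its loss causes Netherton syndrome with premature shedding of the horny layer. KLK5 can activate itself and other kallikreins, KLK7 is chymotrypsin-like, and active kallikreins also cut the receptor PAR2 and antimicrobial peptides.

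The 96 libraries came from back-skin epidermis, lifted with dispase, of male C57BL/6 mice aged 8 weeks in 12 h light and 12 h dark. Each genotype had 4 mice at each of 6 zeitgeber times (ZT), counted from lights on at ZT0 and spaced by 4 h up to ZT20. The control mice, WT, were Arntl wt/wt and carried both transgenes, K14Cre wt/tg and Syt10-Cre tg/wt, so the controls shared the Cre lines. The other genotypes had Arntl, the gene of the clock activator BMAL1, blocked on both alleles by a stop cassette that Cre removes (Arntl stopFL/stopFL). RERE mice carried K14Cre tg/wt and Syt10-Cre tg/wt, which restores the clock in epidermis and brain. EpiRE mice carried K14Cre tg/wt with Syt10-Cre wt/wt, so that the epidermal clock alone is restored. BRE mice carried Syt10-Cre tg/wt with K14Cre wt/wt, so that the brain clock alone is restored and the epidermis stays without BMAL1. K14Cre acts in keratinocytes, and other cells of the sheet keep the blocked allele.

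Estimated depth was 11.4 to 32.7 M reads per library. Arntl reads did not separate the genotypes (4.69 to 27.4 RPKM in WT libraries and 11.4 to 14.6 RPKM in BRE libraries), so the Arntl level is no check of the labels. Its target Nr1d1 was at 3.30 to 5.07 RPKM in BRE and at 8.17 to 170 RPKM in WT. By a limma test of a 24 h rhythm, all 4 clock genes (Arntl, Per2, Nr1d1 and Dbp) were called in WT and RERE (34.4% and 16.4% of all tested genes). In EpiRE 3 were called (2.87% of all), without Nr1d1 (adjusted p = 0.127). In BRE 1 was called (17.1% of all), Arntl, at a fitted peak-to-trough difference of 0.18 ± 0.05 log2 (SE, adjusted p = 0.0329). The keratinocyte gene Krt5 was at 4330 to 8110 RPKM in all libraries, while the 4 endothelial markers summed to 0.163 to 0.549 RPKM and the 5 fibroblast markers to 1.11 to 20.7 RPKM. The 4 tables had been normalized separately, so levels are set side by side between genotypes but were not tested.

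The 9 kallikrein genes all lie on the plus strand within 161 kb of chromosome 7 (chr7:43690418-43851181, mm10, GENCODE M21). From left to right they are Klk14, Klk13, Klk11, Klk10, Klk9, Klk8, Klk7, Klk6 and Klk5. The annotated antisense transcript 2310002F09Rik overlaps Klk8, Klk9, Klk10, Klk11, Klk13 and Klk14 on the other strand. The library kit marks strand, but the strand setting of the counting is not given in the sources used here, so those 6 genes may hold antisense reads. Klk5, Klk6, Klk7 and Spink5 overlap no other annotated gene.

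Promoter sequence is shown for Klk5 and Klk7, whose transcripts varied together, and for Klk10, whose transcript did not follow Klk5. Each is RefSeq sequence of GRCm38.p6 (the build of mm10), plus strand, before the RefSeq start site and with bases in annotated exons left out. Capitals mark CANNTG, the general E-box read by many helix-loop-helix factors, searched on both strands.
Klk5 (chr7:43842068-43842268, ending at the base before the start; GENCODE places this stretch in an intron of a longer Klk5 transcript): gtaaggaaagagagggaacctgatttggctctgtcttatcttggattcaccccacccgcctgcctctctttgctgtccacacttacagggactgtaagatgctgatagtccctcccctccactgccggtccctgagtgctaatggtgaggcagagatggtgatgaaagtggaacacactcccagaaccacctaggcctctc
Klk7 (chr7:43811044-43811293, ending at the base before the start): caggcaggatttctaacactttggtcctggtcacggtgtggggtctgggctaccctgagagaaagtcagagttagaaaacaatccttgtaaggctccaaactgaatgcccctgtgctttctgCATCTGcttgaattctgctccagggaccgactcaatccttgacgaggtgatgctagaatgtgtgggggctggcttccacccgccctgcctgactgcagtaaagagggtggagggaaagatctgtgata
Klk10 (chr7:43780804-43781034, ending 20 bases before the start and lying within antisense 2310002F09Rik): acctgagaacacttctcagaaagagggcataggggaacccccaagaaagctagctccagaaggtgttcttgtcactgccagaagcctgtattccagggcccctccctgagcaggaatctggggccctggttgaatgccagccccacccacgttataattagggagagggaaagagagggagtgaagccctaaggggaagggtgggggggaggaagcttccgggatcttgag

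Klk7 held 1 such match, and Klk5 and Klk10 held 0. The 250 bases before the start were searched in all 11 RefSeq promoters of the 9 kallikrein genes. The canonical E-box CACGTG, the palindromic site of BMAL1 and CLOCK, was in 0 of 11, against 6.02% of the 32851 RefSeq promoters of the mouse. The D-box forms TTATGTAA and TTACGTAA were in 0 of 11 and 0.931% of all. The letters AGGTCA, the half-site of REV-ERB and ROR receptors, were in 0 of 11 and 14.0% of all, and TATAAA, read on the plus direction of the gene only, in 0 of 11 and 7.59% of all. CANNTG, which includes CACGTG, was in 8 of 11 and 66.2% of all. These are counts of letters in short windows and no statement on binding.

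The genes are grouped here into 3 tiers by their genotype means, with single libraries in the plot of levels by gene. The tiers are not set apart in single libraries, as Klk14 exceeded Klk10 in 21 of 24 BRE libraries. Klk10 (means of 9.69 to 11.9 RPKM) and Klk9 (3.08 to 3.80) also stood apart within their tier. Spink5, Klk11, Klk5, Klk7, Klk14 and Klk8 had genotype means from 23.3 to 85.6 RPKM, Klk10 and Klk9 from 3.08 to 11.9 RPKM, and Klk13 and Klk6 from 0.271 to 1.23 RPKM. Spink5, the inhibitor, which lies on chromosome 18 (chr18:43963235-44022501, mm10, plus strand), headed the order in every genotype. Its mean was 68.0 ± 20.2 RPKM in WT (SD, n = 24), 85.6 ± 25.3 in BRE, 67.1 ± 17.1 in RERE and 66.8 ± 15.8 in EpiRE. It exceeded Klk11, the next gene, in 18 of 24 WT libraries, 17 RERE, 19 EpiRE and 23 BRE libraries. Klk10, Klk9 and Klk13 followed one another in that order in all 24 libraries of each genotype.

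**Figure D1:**
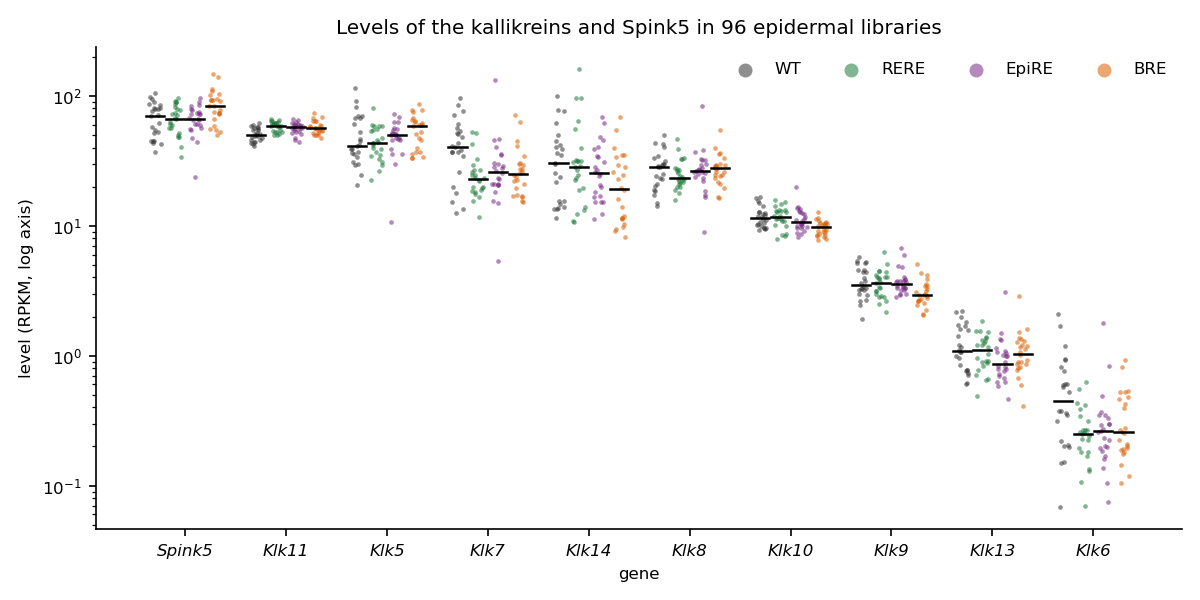
Level of each gene (RPKM, log axis) in every library, by genotype (colours); points are mice and black bars are medians of 24 libraries. By their means, Spink5 and 5 kallikreins lie in an upper tier, Klk10 and Klk9 below it, and Klk13 and Klk6 near or under 1 RPKM. Single libraries of Klk14 and Klk10 overlap.

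Klk11, a trypsin-like kallikrein, was the most even of the strongly expressed members. It ran from 40.8 to 62.0 RPKM over the 24 WT libraries (median 50.1), from 49.9 to 66.4 in RERE, from 43.9 to 66.4 in EpiRE and from 47.0 to 73.8 in BRE. Klk5 ran from 20.8 to 115 RPKM in WT (median 41.2), from 33.4 to 87.0 in BRE (median 58.9), from 22.4 to 80.3 in RERE (median 43.5) and from 10.7 to 72.9 in EpiRE (median 50.2). The ranges of the 4 genotypes overlapped for both genes. In WT, Klk11 exceeded Klk5 in 15 of 24 libraries, so the 2 neighbours in the order did not separate.

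Klk7 had its highest mean in WT, 44.2 ± 22.3 RPKM (SD, n = 24), against 28.4 ± 14.1 in BRE, 25.2 ± 10.4 in RERE and 30.7 ± 23.6 in EpiRE. The lowest WT library had 12.6 and the highest 95.8 RPKM, so WT spanned nearly the whole range of RERE (11.7 to 52.7) and of BRE (15.3 to 70.9). Summed markers of the upper hair follicle and sebaceous gland, which correlated with Klk7 between mice (r = 0.63, n = 96), had a median of 1142 RPKM in WT, 978 in BRE, 806 in RERE and 829 in EpiRE. Their part in the level of Klk7 was not tested. Klk8, another trypsin-like kallikrein, was level in the side-by-side values, with means of 27.9, 25.5, 28.4 and 28.0 RPKM in WT, RERE, EpiRE and BRE.

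Klk14, an activator of other kallikreins, varied most of the 9 tested members between mice of a group when the 4 genotypes were pooled, though in EpiRE alone Klk7 varied as much (SD of 0.77 against 0.75 log2). Its libraries ran from 11.6 to 99.8 RPKM in WT, from 8.22 to 68.9 in BRE, from 10.6 to 161 in RERE and from 11.2 to 68.5 in EpiRE. Mice of the same genotype and time differed widely, and at ZT8 the 4 WT mice had 99.8, 14.0, 36.6 and 21.6 RPKM. Klk14 made up 4.54% to 46.6% of the summed kallikrein RPKM of a WT library, whereas Klk11 made up 23.5% ± 5.24 (SD, n = 24) and at most 34.8%. Klk13 had 0.413 to 3.10 RPKM over all libraries, and Klk6 had a median of only 6.62 estimated reads, which include the 2 reads added in the deposited values, so its values carry a large counting error.

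The spread between mice of the same genotype and time was wide for most of these genes. Its SD on the log2 scale was 0.89 for Klk14, 0.67 for Klk7, 0.52 for Klk13, 0.50 for Klk5, 0.44 for Klk8, 0.40 for Spink5, 0.35 for Klk9, 0.22 for Klk10 and 0.14 for Klk11. The median over the 12144 tested genes was 0.16. Klk14 thus stood at percentile 99.6 of that spread and Klk7 at percentile 98.4, while Klk11 stood at percentile 42.7. By Dixon's limit, 14 of 240 sets, each a gene in a group of 4 mice, held a library that stood apart, where chance gives 12. The sets are not independent, since the same libraries recur over genes that vary together. Some libraries lay far from the other mice of their group, though not every value given here passed that limit. For instance, EpiRE ZT12 replicate 3 had 132 RPKM of Klk7 and 83.7 of Klk8 (28.6 to 35.0 and 18.4 to 31.9 in the other 3 mice), EpiRE ZT8 replicate 4 had 10.7 of Klk5 and 23.5 of Spink5 (46.0 to 68.2 and 59.6 to 95.7 in the others), and BRE ZT0 replicate 1 had 59.6 of Klk5 and 91.7 of Spink5 (33.4 to 34.0 and 54.3 to 58.5 in the others). BRE ZT12 replicate 1 had 70.9 of Klk7 and 54.5 of Klk8 (23.6 to 44.8 and 28.2 to 36.4 in the others).

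Whether the time of day moved these transcripts was asked in each genotype by fitting a cosine of 24 h to the log2 values. In BRE, the epidermis without BMAL1, 4 of the 9 tested members passed the test, namely Spink5, Klk5, Klk7 and Klk8. All 4 had their fitted peak around lights off, between ZT11.1 and ZT13.6. In WT 1 of 9 passed, Klk10, with its peak in the dark at ZT15.4, and in RERE and EpiRE 0 of 9 passed. Over all tested genes, 17.1% were called in BRE, 34.4% in WT, 16.4% in RERE and 2.87% in EpiRE (limma F test, Benjamini-Hochberg adjusted p under 0.05). The members' median fitted peak-to-trough difference was 0.56 log2 in BRE against 0.20 over all tested genes, and 0.38 against 0.23 in WT, 0.37 against 0.18 in RERE and 0.34 against 0.15 in EpiRE. The members' errors were larger too, with a median SE of 0.19 in BRE and 0.28 in WT against 0.09 over all tested genes in both. In bulk epidermis, fewer cells of a type and less RNA per cell cannot be told apart.

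Spink5 in BRE had 91.7, 58.5, 54.3 and 55.2 RPKM at ZT0 and 50.2, 78.4, 73.5 and 52.3 at ZT4. It had 94.7, 109, 73.0 and 114 RPKM at ZT8, 73.9, 102, 103 and 92.9 at ZT12, 82.9, 147, 139 and 92.5 at ZT16, and 66.3, 82.8, 93.5 and 75.3 at ZT20. The means were thus lowest at ZT4 and highest at ZT16, 63.6 ± 14.4 and 115 ± 32.2 RPKM (SD, n = 4), and these groups did not overlap. The fitted difference was 0.80 ± 0.18 log2 (SE), or 1.74-fold, with the peak at ZT13.6 (limma, adjusted p = 0.0143). It was called when any single BRE library was left out, with an adjusted p between 0.00467 and 0.0303.

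Klk5 in BRE had 33.4 to 34.0 RPKM in 3 mice of ZT0 and 59.6 in replicate 1. Its mean was 49.1 ± 14.1 RPKM at ZT4 (SD, n = 4), 64.2 ± 11.1 at ZT8, 66.2 ± 6.78 at ZT12, 62.9 ± 22.7 at ZT16 and 48.4 ± 10.1 at ZT20. At ZT12 the 4 mice had 59.9 to 75.2 RPKM, all above the 59.6 RPKM of the highest mouse of ZT0. The fitted difference was 0.76 ± 0.20 log2, or 1.69-fold, with the peak at ZT11.8 (adjusted p = 0.0296). The call was lost without any of ZT0 replicates 2, 3 and 4 or ZT12 replicate 3, with an adjusted p of at most 0.0624.

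Klk7 in BRE had its lowest mean at ZT0 (19.2 ± 5.36 RPKM, SD, n = 4) and its highest at ZT12 (42.3 ± 21.1 RPKM). The 4 mice of ZT12 had 70.9, 23.6, 29.8 and 44.8 RPKM, and the lowest of them was under the 27.2 RPKM of BRE ZT0 replicate 1, so those groups overlapped. The fitted difference was 0.99 ± 0.28 log2, or 1.99-fold, at ZT12.5 (adjusted p = 0.0434). The call held in 8 of the 24 fits with a library left out, those without ZT0 replicate 1, ZT4 replicates 2 and 3, ZT8 replicate 3, ZT12 replicate 2, ZT16 replicates 1 and 4, and ZT20 replicate 2, and in the others the adjusted p reached 0.0883. Klk8 had 22.3 RPKM on average at ZT0 (16.5 to 28.7) and 37.2 ± 12.1 at ZT12 (28.2 to 54.5), with a fitted difference of 0.67 ± 0.18 log2, or 1.59-fold, at ZT11.1 (adjusted p = 0.0349). Its call was lost without any of ZT0 replicates 2 and 3, ZT8 replicates 2 and 4, ZT12 replicates 1 and 3, and ZT20 replicate 1, with an adjusted p of up to 0.0760. With no filter on low genes the BRE calls of Klk5 (adjusted p = 0.0560), Klk7 (0.0804) and Klk8 (0.0652) were lost and that of Spink5 was not (0.0278), and with a free mean at each time the values were 0.147, 0.204, 0.157 and 0.0391.

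**Figure D2:**
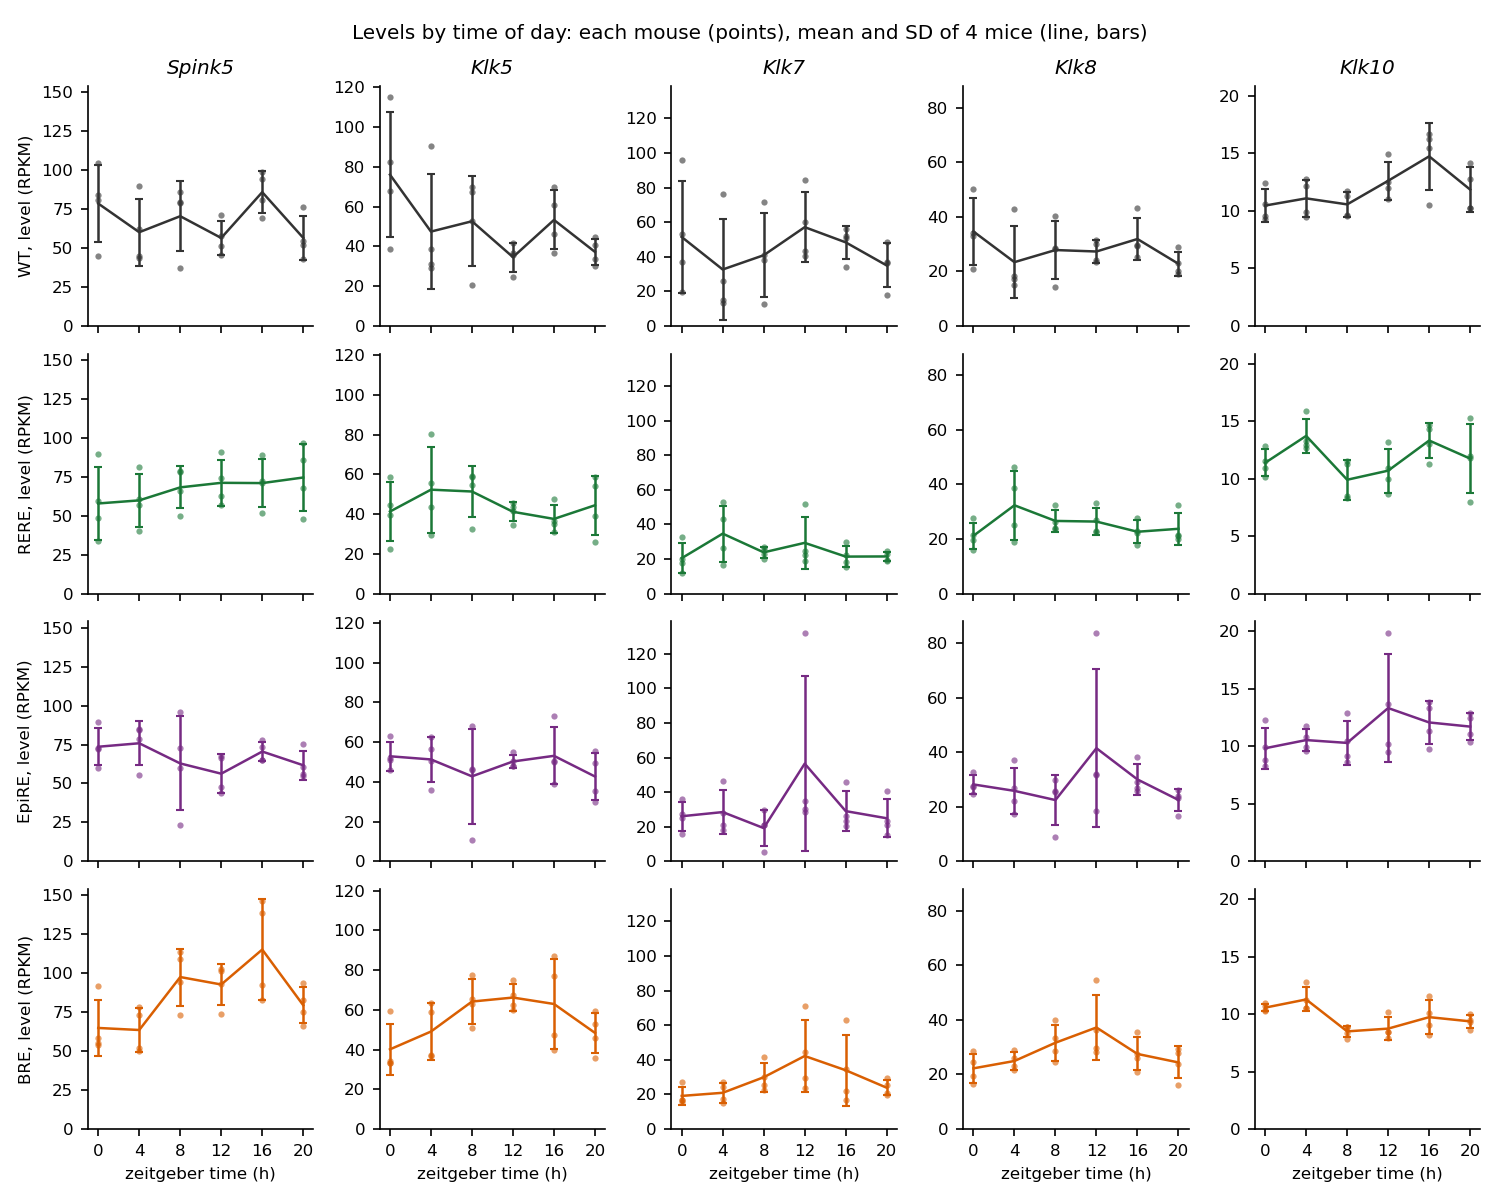
Level (RPKM) of Spink5, Klk5, Klk7, Klk8 and Klk10 by zeitgeber time (h) in the 4 genotypes; points are mice, lines join the means and bars are the SD of 4 mice. In BRE the means of Spink5, Klk5, Klk7 and Klk8 are higher from ZT8 to ZT16 than at ZT0, and in EpiRE a single mouse at ZT12 lifts Klk7 and Klk8.

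Granular markers moved with the same hours in BRE. Krtdap and Sbsn made up 94.7% of the sum of the 10 markers listed for that layer. This sum had its lowest mean at ZT0 (2816 RPKM) and its highest at ZT8 (4229 RPKM). The sum of the 6 basal markers had the reverse order, 15297 RPKM at ZT0 and 12774 at ZT8. By limma 3 of the 9 tested granular markers were called in BRE, against 17.1% of all tested genes. They were Ivl at ZT14.1, Hrnr at ZT13.2 and Sbsn at ZT12.2. Of the 6 spinous markers 3 were called in BRE, and of the 6 basal markers 2. In WT 2 of the 9 granular markers were called (34.4% of all genes), Tgm3 at ZT10.5 and Ivl at ZT21.8. The mean log2 level of the 10 markers, which weights each gene equally, went from 4.02 at ZT0 to 4.71 at ZT12 in BRE. In that mean Rptn, at 0.151 RPKM and so under the filter of 1 RPKM, had the same weight as Krtdap at 1630 RPKM.

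With that mean as a covariate, in a fit added after the data were seen, 0 of 9 members were called in BRE, and the share of all tested genes called there was 4.81%. The fitted differences in BRE were then 0.26 ± 0.11 log2 (SE) for Klk5 (limma, adjusted p = 0.302), 0.14 ± 0.32 for Klk7 (0.970), 0.28 ± 0.15 for Klk8 (0.458) and 0.17 ± 0.11 for Spink5 (0.590), and 1 member, Klk11, had an unadjusted p under 0.05. In the same fit 2 were called in WT (33.9% of all genes), Klk7 (0.95 ± 0.29 log2, adjusted p = 0.0447) and Klk10 (0.42 ± 0.12 log2, 0.0289). In RERE 2 were called (17.8% of all genes), Klk11 (0.22 ± 0.06 log2, 0.0247) and Spink5 (0.45 ± 0.13 log2, 0.0492), and in EpiRE 0 were called (2.84%). The covariate itself moved with the time of day in BRE. Between mice it had r = 0.86 with Spink5 and r = 0.88 with Klk5. This fit therefore cannot tell layer makeup from levels within granular cells.

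Klk10, a kallikrein of stratified epithelia, was the 1 member called in WT. In WT its 4 mice had 12.4, 10.6, 9.53 and 9.30 RPKM at ZT0, 11.7, 9.65, 11.3 and 9.58 at ZT8, and 16.7, 16.3, 10.5 and 15.5 at ZT16. Of the ZT16 mice, 3 lay above every mouse of ZT0 and ZT8 and replicate 3 lay among them. The fitted difference was 0.41 ± 0.13 log2, or 1.33-fold, at ZT15.4 (limma, adjusted p = 0.0376). The call was lost with no filter on low genes (0.0673), with library weights (0.0553), with a free mean at each time (0.0937) and by JTK_CYCLE in the authors' deposited table (q = 0.168). It was also lost without any of ZT0 replicates 2, 3 and 4, ZT4 replicates 1 and 3, ZT12 replicate 4, and ZT16 replicates 1, 2 and 4, with an adjusted p of up to 0.0856. In BRE the mice had 10.4, 10.7, 10.3 and 10.9 RPKM at ZT0 against 7.82, 8.87, 8.88 and 8.39 at ZT8, which did not overlap. The fitted difference was 0.31 ± 0.09 log2 with the peak at ZT0.56, and it missed the threshold (adjusted p = 0.0504).

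The members without a call gave wide or small estimates. In RERE, Klk11 came closest, at 0.20 ± 0.06 log2 and ZT19.7 (limma, adjusted p = 0.0729), and it was the 1 member of RERE with an unadjusted p under 0.05. It was called without RERE ZT0 replicate 1, ZT8 replicate 2 or ZT8 replicate 3, with an adjusted p down to 0.0278. No member of EpiRE reached that level, and its smallest unadjusted p was 0.0971, for Klk10. Klk14 had fitted differences of 0.69 ± 0.52 log2 in WT, 0.56 ± 0.51 in BRE, 0.53 ± 0.58 in RERE and 0.36 ± 0.42 in EpiRE. Klk9 and Klk13 had adjusted p-values from 0.236 to 1 in the 4 genotypes. Tested for any difference between the 6 times, with no cosine assumed, 2 members were called in BRE, Klk10 (limma, adjusted p = 0.0271) and Spink5 (0.0391), against 13.4% of all tested genes. By that test 0 were called in WT (35.1% of all genes), RERE (10.8%) or EpiRE (2.13%), and at an unadjusted p under 0.05 there were 2 in WT and 0 in RERE and EpiRE. In the authors' deposited tables, q values under 0.05 were given to 0 of the 10 genes by JTK_CYCLE and to 0 by BIOCYCLE, and the lowest JTK_CYCLE values were 0.0909 for Klk5 and 0.102 for Spink5, both in BRE.

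**Figure D3:**
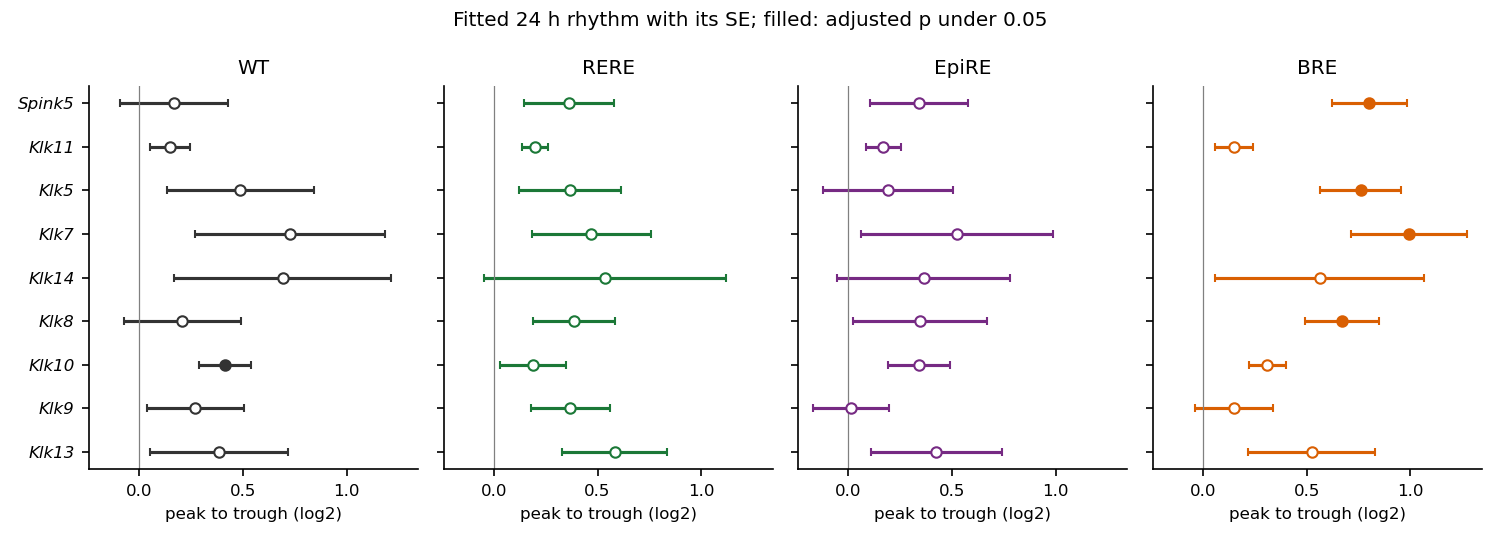
Fitted peak-to-trough difference of a 24 h cosine (log2) with its SE for the 9 tested genes, 1 panel per genotype; filled points have an adjusted p under 0.05. Spink5, Klk5, Klk7 and Klk8 are filled in BRE, Klk10 in WT, and none in RERE or EpiRE.

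A call in BRE and none in WT does not by itself show a difference, so the rhythms were compared in pairs of genotypes. Between BRE and WT, 1 of 9 members differed, Klk10, against 20.2% of all tested genes. The difference of its 2 fitted rhythms was 0.68 log2 from peak to trough (limma, adjusted p = 0.00551), and the adjusted p was 0.0471 with the granular covariate, when 10.4% of all genes were called. With all mice of a replicate number left out of both genotypes, the call was lost without replicate 2 or 4, with an adjusted p of up to 0.0824. Klk5, whose fitted peak was at ZT0.38 in WT and ZT11.8 in BRE, missed the threshold (1.24 log2, adjusted p = 0.0640), as did Spink5 (0.76 log2, adjusted p = 0.181), Klk8 (0.68 log2, 0.284) and Klk7 (0.57 log2, 0.719). In WT, Klk5 had 115, 68.0, 38.9 and 82.5 RPKM at ZT0 and 24.4, 41.6, 36.6 and 35.8 at ZT12, so 3 of the 4 mice of ZT0 lay above every mouse of ZT12, whereas in BRE all mice of ZT12 lay above those of ZT0. Without BRE ZT0 replicate 1, both Klk5 (0.0412) and Klk10 (0.00572) were called by limma. That fit was added after the data were seen, and the library left out stood apart in Klk5 itself. It therefore lends no support to a difference in Klk5.

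Between EpiRE and BRE, which differ in where the clock was restored, 2 of 9 differed, against 13.9% of all tested genes. These were Spink5 (1.11 log2, adjusted p = 0.0269), with fitted peaks at ZT23.7 in EpiRE and ZT13.6 in BRE, and Klk10 (0.62 log2, adjusted p = 0.0362), with peaks at ZT14.7 and ZT0.56. In EpiRE, Spink5 had 72.6, 72.0, 60.2 and 89.5 RPKM at ZT0 and 47.6, 67.6, 43.8 and 66.1 at ZT12, and Klk10 had 12.3, 8.85, 9.97 and 8.26 at ZT0 and 13.7, 9.53, 19.9 and 10.2 at ZT12. The 2 times overlapped for both genes there, with the highest Klk10 value in replicate 3 of ZT12. In limma fits added after the data were seen, Spink5 was still called without EpiRE ZT12 replicate 3 (adjusted p = 0.0474) and without EpiRE ZT8 replicate 4 (0.00708). In those fits the Klk10 call was lost without EpiRE ZT12 replicate 3 (0.0565). With all mice of a replicate number left out, Spink5 was called only without replicate 4 and Klk10 in none of the 4 fits, with adjusted p-values of up to 0.128 and 0.176. Neither was called with the granular covariate (0.601 and 0.309), when 0.963% of all genes were called. By limma 0 of 9 members differed in each of the other pairs, which were EpiRE and WT (8.51% of all genes called), RERE and WT (0.453%), RERE and BRE (4.79%) and RERE and EpiRE (4.04%). Over these 4 pairs a single value had an unadjusted p under 0.05, Klk5 between RERE and BRE (0.0414). With the granular covariate 1 member differed between RERE and EpiRE, Spink5, against 4.36% of all genes, and 0 of 9 differed between EpiRE and WT (7.63%), RERE and WT (0.469%) and RERE and BRE (2.5%).

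Between mice of the same genotype and time, pairs of members varied together to different degrees. Klk5 and Spink5, the protease and its inhibitor on different chromosomes, had the highest correlation of deviations from the group means, Pearson r = 0.90 and Spearman rho = 0.85 over 96 libraries, with r from 0.89 to 0.92 in single genotypes and 0.87 without the 2 libraries farthest from the median. Klk7 and Klk8, neighbours on chromosome 7, had r = 0.81 (rho 0.74, 0.61 to 0.91 in single genotypes, 0.78 without the 2 farthest libraries). Klk5 had r = 0.75 with Klk8 and r = 0.73 with Klk7, while Spink5 had r = 0.57 with Klk7 and r = 0.53 with Klk8. Klk11 had r = 0.36 with Klk5 and r = 0.34 with Spink5, with single-genotype values from -0.12 and 0.03 in WT to 0.82 and 0.80 in BRE. The points of each correlation share a library, its depth and its makeup of cell layers.

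Members next to each other on the chromosome did not all vary together. Klk6 lies between Klk7 and Klk5 and had r = 0.59 and r = 0.23 with them, over few reads. Klk9 and Klk10 had r = 0.46, and Klk10 had r = 0.03 with Klk5 and r = -0.18 with Spink5. Klk14 had r = -0.33 with Klk5 (-0.50 in RERE to 0.05 in BRE), r = -0.26 with Spink5 (-0.52 in RERE to 0.05 in BRE) and r = 0.21 at most, with Klk6 and Klk10.

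**Figure D4:**
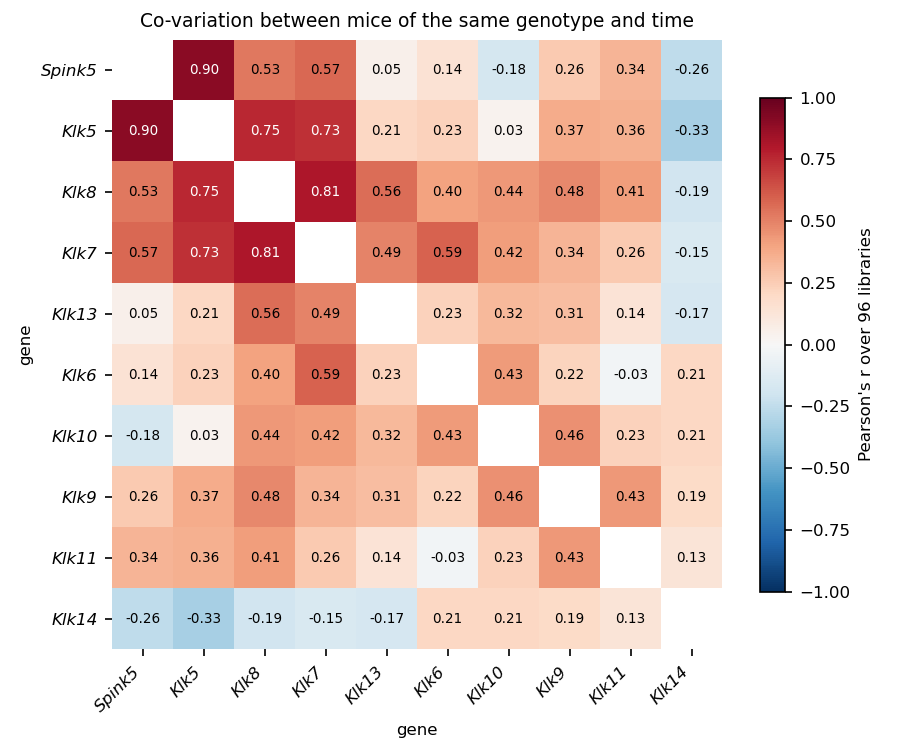
Pearson's r (colour and number) between the deviations of each pair of genes from the mean of the same genotype and time, over 96 libraries. Pairs among Spink5, Klk5, Klk8 and Klk7 have r from 0.53 to 0.90, Klk6 with Klk7 (0.59) and Klk8 with Klk13 (0.56) reach into that range, and Klk14 is at or under 0.21 with every other gene.

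The ratio of Klk5, a protease, to Spink5, its inhibitor, varied less between libraries than Klk5 alone, which follows from how closely these genes varied together. The log2 ratio of Klk5 to Spink5 had an SD of 0.31 in WT, 0.23 in BRE, 0.29 in RERE and 0.29 in EpiRE over 24 libraries, against 0.62, 0.43, 0.44 and 0.54 for Klk5 by itself. Its mean was -0.51, -0.64, -0.60 and -0.48, so Klk5 was below Spink5 per length on average in all 4 genotypes. Klk7 to Spink5 was looser, with an SD from 0.46 in BRE to 0.76 in EpiRE, and Klk14 to Spink5 ranged over an SD of 0.93 to 1.19. In WT the log2 ratio of Klk14 to Spink5 lay between -3.03 and 1.43 in single libraries. These are ratios of transcripts, not of active protein.

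The summed granular markers, mostly Krtdap and Sbsn, followed Spink5 (r = 0.94 over 96 libraries, 0.92 to 0.97 in single genotypes) and Klk5 (r = 0.90), and less Klk8 (0.57), Klk7 (0.56) and Klk11 (0.42). Klk10 (r = -0.10), Klk13 (0.05) and Klk14 (-0.17) had values near 0 or below. Against the equally weighted mean log2 of the markers, r was 0.86 for Spink5, 0.88 for Klk5, 0.68 for Klk7 and 0.62 for Klk8. Basal markers went the other way for Spink5 (r = -0.73) and Klk5 (r = -0.60). The deviation plots show both patterns. In EpiRE ZT8 replicate 4, the library lowest in Klk5, the granular markers summed to 1187 RPKM against 2915 to 3538 in the other 3 mice of that group. In EpiRE ZT12 replicate 3, where Klk7 and Klk8 were high, they summed to 2139 RPKM against 2108 to 2723, while the upper follicle and sebaceous markers summed to 1507 against 837 to 1105. In BRE ZT0 replicate 1 they summed to 4318 against 2164 to 2397. The part of these layers in the members' values was not tested, since the covariate fit cannot tell layer makeup from levels within granular cells.

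**Figure D5:**
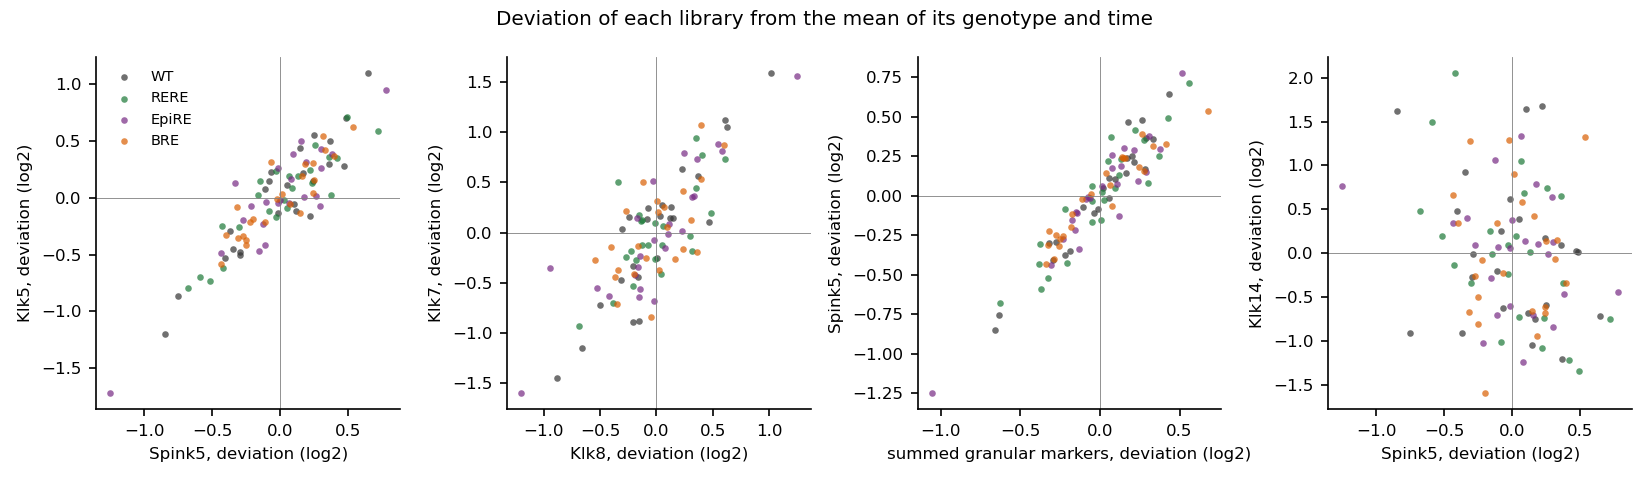
Deviation of each library from the mean of its genotype and time (log2), for Klk5 against Spink5, Klk7 against Klk8, Spink5 against the summed granular markers, and Klk14 against Spink5; colours are genotypes. The first 3 panels rise along a line (r = 0.90, 0.81 and 0.94) and the last does not (r = -0.26).

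Genes most alike to 3 members were found by Pearson's r over 96 libraries after the genotype means were removed. For Spink5 these were Ly6g6c (r = 0.93), Sbsn (0.92), which encodes the cornified-layer protein suprabasin, Krt78 (0.90), Vsig10l (0.90) and Tom1 (0.89). For Klk5 they were Dmkn (0.92), which encodes dermokine, Gsdma (0.89), Sp6 (0.89), Sbsn (0.89) and Crabp2 (0.88), a retinoic acid binding protein. For Klk7 they were its neighbour Klk8 (0.83), the proprotein convertase gene Pcsk6 (0.82), Anxa9 (0.79), Teddm3 (0.72) and Slc6a14 (0.69). Klk7 had 2 genes above r = 0.8, against 67 for Spink5 and 91 for Klk5.

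Other parts of the shedding machinery were counted from lists of genes. Of 17 further kallikrein genes, including the Klk1b cluster, 1 was tested, Klk12 at 1.74 RPKM, and it was not called in any genotype, nor had it an unadjusted p under 0.05 in any. The other 16 had means of 0.0975 to 0.158 RPKM, or medians of 1.76 to 3.30 estimated reads with the 2 added reads included, so these values lie near what the added reads alone give. Of 8 corneodesmosome genes, 0 passed in each genotype by limma, with 3 at an unadjusted p under 0.05 in WT, 4 in BRE, 0 in RERE and 0 in EpiRE. By the same test the shares of all tested genes called were 34.4% in WT, 17.1% in BRE, 16.4% in RERE and 2.87% in EpiRE. Cdsn, which encodes corneodesmosin, had a fitted difference of 0.86 ± 0.31 log2 at ZT11.5 in BRE (adjusted p = 0.117) and 0.39 ± 0.45 in WT (0.772).

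Of 17 other tested epidermal proteases, 7 passed in WT (against 34.4% of all tested genes), 6 in BRE (17.1%), 5 in RERE (16.4%) and 0 in EpiRE (2.87%; 1 at an unadjusted p under 0.05). In WT the cathepsin genes Ctsh (0.61 ± 0.06 log2, ZT10.3, adjusted p = 5.16e-07) and Ctsl (0.89 ± 0.14 log2, ZT12.5, 0.000262), the membrane protease gene Tmprss13 (0.29 ± 0.06 log2, ZT3.38, 0.00222) and St14 had the smallest p-values. St14, which encodes matriptase, an activator of pro-kallikreins, had 0.26 ± 0.06 log2 at ZT18.2 in WT (adjusted p = 0.00811) and 0.13 ± 0.07 in BRE (0.348). In BRE, Ctsd (0.19 ± 0.04 log2, ZT15.6, 0.0130), Asprv1, a protease of filaggrin processing (0.85 ± 0.19 log2, ZT12.1, 0.0153), Plat (0.83 ± 0.19 log2, ZT1.01, 0.0155) and Ctsl (0.49 ± 0.11 log2, ZT17.2, 0.0165) had the smallest. Casp14, the caspase of cornification, passed in BRE (0.44 ± 0.12 log2, ZT9.88, 0.0360) and not in WT (0.17 ± 0.14 log2, 0.601). Prss8, which encodes prostasin, passed in no genotype, with adjusted p-values from 0.197 to 0.921.

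In RERE, Ctsl (0.90 ± 0.16 log2, ZT14.1), Plat (0.90 ± 0.16 log2, ZT1.78), Ctsh (0.33 ± 0.08 log2, ZT10.7) and Capn1 (0.16 ± 0.05 log2, ZT1.37) had the smallest adjusted p-values of the proteases by limma, 0.00172 to 0.0413. Plat had a mean of only 0.890 RPKM in RERE. Of 11 tested inhibitors other than Spink5, 2 passed in WT (against 34.4% of all tested genes) and 3 in RERE (16.4%) by limma, and 0 passed in BRE (17.1%; 2 at an unadjusted p under 0.05) and EpiRE (2.87%; 1). Spint1, an inhibitor of matriptase, peaked by day at ZT10.1 in WT (0.32 ± 0.09 log2, adjusted p = 0.0234) and ZT8.83 in RERE (0.41 ± 0.09 log2, 0.0103). The cystatin gene Cst3 passed in WT (0.35 ± 0.08 log2, ZT0.87, 0.00470) and RERE (0.34 ± 0.09 log2, ZT0.35, 0.0315), and Stfa1 in RERE (1.47 ± 0.38 log2, ZT4.20, 0.0297). Of 4 tested receptors and substrates, 1 passed in WT, the cytokine gene Tslp (0.62 ± 0.16 log2, ZT9.07, 0.0155), and 0 in RERE, EpiRE and BRE (0, 1 and 1 at an unadjusted p under 0.05). F2rl1, which encodes the receptor PAR2, had 0.12 ± 0.08 log2 in WT (adjusted p = 0.431) and 0.17 ± 0.04 in EpiRE (0.0723). The median fitted difference of the protease list was 0.26 log2 in WT and 0.22 in BRE, against 0.23 and 0.20 over all tested genes. It was 0.41 and 0.18 for the corneodesmosome genes, 0.35 and 0.34 for the inhibitors, and 0.29 and 0.22 for the receptors and substrates.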

How the data were processed

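Poly(A) RNA of 96 epidermal libraries was sequenced after preparation with a stranded mRNA kit, per the labels' protocols. Reads were trimmed with Trimmomatic 0.36, aligned with HISAT2 2.2.1 to mm10, handled with SAMtools 1.3.1 and counted with featureCounts 1.6.0, with edgeR also named, per the submitters' processing notes. The deposited values are log2 values in 1 table per genotype. Their low values step as log2 RPKM with 2 reads added, from which depth was estimated, with 100% of low values within 0.05 of a whole read. Levels are given as 2 to the power of the deposited log2 value. The authors also deposited q-values of JTK_CYCLE and BIOCYCLE, and 96 columns of per-sample values in their tables were not used.

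A cosine and sine of 24 h were fitted to the log2 values, genotype by genotype, by limma 3.58.1 (R 4.3.3; moderated F test with a trend, Benjamini-Hochberg adjustment over the 12144 genes whose mean reached 1 RPKM, called under 0.05). The other 10240 genes were not tested. Rhythms of 2 genotypes were compared by the interaction of genotype and harmonic over 48 libraries, in 6 pairs. Descriptions used numpy 2.4.6, pandas 2.3.3 and scipy 1.17.1. Scripts were tested on simulated data. The tests set each fitted effect against the spread of mice around the fit, moderated toward a trend over all genes.

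All members are named. Of each pathway list, up to 4 called genes per genotype with the smallest adjusted p are named, plus St14, Prss8, Cdsn, Casp14, Spint1 and F2rl1, the clock genes, and the 5 genes most alike to Spink5, Klk5 and Klk7. Members and lists were chosen with earlier results of these data known. Alternatives were other filters, scalings, a pseudocount, a free mean at each time, a replicate block, library weights, the authors' q-values and left-out libraries.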

Additional observations from a re-analysis of the deposited data

Results flagged for a closer look

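In 14 of 240 sets, each 1 of the 10 genes in a group of 4 mice, a library stood beyond Dixon's limit, where chance gives 12 (1 in 20). The sets are not independent, since the same libraries recur over genes. In BRE ZT0 replicate 1, Klk5 was at 59.6 RPKM (others 33.4 to 34.0), Klk7 at 27.2 (15.6 to 17.1) and Spink5 at 91.7 (54.3 to 58.5). Klk6 in the same library was at 0.919 RPKM (others 0.210 to 0.260). In EpiRE ZT12 replicate 3, Klk7 was at 132 RPKM (28.6 to 35.0) and Klk13 at 3.10 (0.993 to 1.14). In EpiRE ZT8 replicate 4, Klk8 was at 8.87 RPKM (25.4 to 29.8). In BRE ZT12 replicate 1, Klk6 was at 0.822 RPKM (0.182 to 0.202) and Klk13 at 2.90 (1.18 to 1.36). In RERE ZT20 replicate 3, Klk8 was at 32.6 RPKM (19.9 to 21.3) and Klk13 at 1.33 (1.53 to 1.56). Klk5 in RERE ZT8 replicate 2 was at 32.6 RPKM (54.8 to 59.3), Klk10 in WT ZT16 replicate 3 at 10.5 (15.5 to 16.7), and Spink5 in WT ZT8 replicate 1 at 37.2 (78.9 to 86.1).

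Rhythms that differed between genotypes by the interaction test of limma were those of Klk10 between BRE and WT (adjusted p = 0.00551), Klk10 between EpiRE and BRE (0.0362) and Spink5 between EpiRE and BRE (0.0269).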

How the results depend on the processing

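The count of called members was 1 in WT, 4 in BRE, 0 in RERE and 0 in EpiRE. The shares of all tested genes called were 34.4%, 17.1%, 16.4% and 2.87% in that order. With the free mean they were 35.1% in WT and 13.4% in BRE. With the granular covariate they were 33.9% in WT, 17.8% in RERE and 4.81% in BRE. No share was taken for the other settings, nor for the free mean between genotypes. Those counts therefore cannot be set against all genes. With no filter it was 0 in WT and 1 in BRE (Spink5), with a free mean at each time 0 and 2, with library weights 0 in WT and 1 in RERE, and with the authors' JTK_CYCLE q-values 0 in WT and 0 in BRE. With the granular covariate, added after the data were seen, it was 2 in WT, 2 in RERE and 0 in BRE, where the fitted peak of Klk5 moved to ZT4.19 (adjusted p = 0.302). Between BRE and WT, 1 member differed, and 2 did with library weights. Between EpiRE and BRE, 2 differed, against 1 with no filter, 1 with median-of-ratios rescaling, 0 with a free mean and 0 with the granular covariate, and between RERE and EpiRE 0 differed, against 1 with that covariate (Spink5). In EpiRE the count was 0 under every alternative run. Leaving out each library gave 0 to 1 in WT, 1 to 5 in BRE, 0 to 1 in RERE and 0 to 0 in EpiRE. Leaving out each replicate number, or a library that stood apart, gave 0 to 2 between BRE and WT, 0 to 2 between EpiRE and BRE, and 0 to 0 in the other pairs. The fits without a library that stood apart were added after the data were seen. With the replicate number as a block, 1 member was called in RERE (Klk11) and 2 in BRE (Klk5 and Spink5). Libraries that share a number did not deviate together (mean correlation -0.06 to 0.09), so the numbers were not taken as pairs. Where values had few reads, as for Klk6 and Klk13, depth limits what can be seen.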

Other observations

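Klk14 was examined for likeness after its values were seen. Over 96 libraries with genotype means removed, 46 genes had r above 0.9 with Klk14, against 3 for Spink5, 1 for Klk5 and 0 for Klk7. The closest were the homeobox gene Rhox8 (r = 0.99, up to 288 RPKM), the kinase gene Mylk4 (0.99, 2.10 to 37.3 RPKM), Nkx2-1, a transcription factor gene best known from thyroid and lung (0.99, 6.13 to 107 RPKM), Pigr, the receptor for polymeric immunoglobulins (0.99, 4.05 to 69.8 RPKM), and Fam124a (0.99, 3.37 to 53.6 RPKM). With the means of genotype and time removed, 44 genes had r above 0.9 with Klk14, 28 with Spink5, 10 with Klk5 and 0 with Klk7. Above r = 0.8, with genotype means removed, there were 87 for Klk14, 91 for Klk5, 67 for Spink5 and 2 for Klk7. The contrast between Klk14 and the others thus depended on the cut and on the means removed. The points share a library and its depth, with which Klk14 had r = -0.36.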
